A study of Homo sapiens with 4 samples.

Results

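Promoter accessibility was described for 9 genes of MHC (major histocompatibility complex) class I antigen presentation, out of 28775 promoters with a count. The 9 genes were chosen by name and found by Entrez identifier. They comprise the heavy chain genes HLA-B, HLA-C, HLA-E, HLA-F and HLA-G, the light chain gene B2M, the peptide transporter genes TAP1 and TAP2, and the activator gene NLRC5. The measurement was ATAC-seq, in which the transposase Tn5 cuts and tags open DNA, so that a promoter with more fragments is more accessible. All libraries were made from HEK293T, a long-established cell line of human embryonic kidney origin that carries the SV40 large T antigen, and MORC2 was wild type in both groups. Overexpression libraries (n = 2) came from cells transfected with a plasmid for MORC2, an ATPase of the MORC family known for binding and compacting DNA, as a fusion with a green fluorescent tag. Control libraries (n = 2) came from cells that received lipofectamine, the transfection reagent, and the labels name no plasmid for them. An effect of plasmid DNA and an effect of MORC2 therefore cannot be told apart. Both groups were run in duplicate, and no label says whether duplicates were separate cultures. The study describes the replicates of its knockout ATAC-seq as biological and does not repeat the word for this comparison. The p-values therefore rest on the spread between these libraries, pooled over promoters of like abundance, which may be in part technical. They do not measure the spread of any single promoter.

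MHC class I molecules display short peptides from inside the cell to CD8 T cells and natural killer cells. Cytosolic peptides made by the proteasome are carried into the endoplasmic reticulum by the TAP1 and TAP2 transporter, trimmed, and loaded onto a heavy chain paired with beta-2 microglobulin, the product of B2M. HLA-B, HLA-C and B2M are transcribed from a compact promoter module read by RFX, CREB and ATF, and NF-Y factors. NLRC5 docks on this module as a coactivator. These promoters also hold sites for NF-kB and for interferon regulatory factors. HEK293T cells are not immune cells, and class I is expressed in most nucleated cells.

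Reference promoters are shown first, because the motifs through which class I genes are read lie close before the start sites at which promoters were counted. RefSeq (GRCh38.p14) gave promoter sequences for 7 of the 9 genes, each 300 bases long, from 250 bases before the transcription start to 50 bases after it. HLA-E and NLRC5 had no entry. The libraries themselves were aligned to another assembly, so these sequences show the reference and not the DNA of these cells. Capitals mark every match to 5 patterns searched on both strands: CCAAT (the Y box, bound by NF-Y), TGACG (the CRE core, bound by CREB and ATF factors), TTTCNNTTC (the shorter form of the interferon-stimulated response element, ISRE, bound by interferon regulatory factors), its longer form (TTTC, any 2 bases, TTTC) and kappa B (GGGANT, any 2 bases, CC, bound by NF-kB). No pattern for RFX was searched, so a complete class I module cannot be read from these matches. Every CCAAT match is called a Y box by its letters alone, whatever its place or strand. Such a match need not be the Y box of the module. HLA-B (chr6:31357130-31357429, minus strand) and HLA-C (chr6:31272043-31272342, minus strand) show a shared order of these patterns. HLA-G (chr6:29827575-29827874, plus strand, the third of its 3 RefSeq starts) shows fewer of them. B2M (chr15:44711267-44711566, plus strand), TAP1 (chr6:32853655-32853954, minus strand, the first of 2 starts) and TAP2 (chr6:32838690-32838989, minus strand) show how the partner genes differ.
HLA-B: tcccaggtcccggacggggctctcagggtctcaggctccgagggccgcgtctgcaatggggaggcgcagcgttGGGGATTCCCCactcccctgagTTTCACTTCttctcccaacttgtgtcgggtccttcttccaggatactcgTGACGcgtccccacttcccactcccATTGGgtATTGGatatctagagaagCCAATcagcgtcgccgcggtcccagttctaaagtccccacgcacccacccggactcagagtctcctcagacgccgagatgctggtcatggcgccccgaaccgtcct
HLA-C: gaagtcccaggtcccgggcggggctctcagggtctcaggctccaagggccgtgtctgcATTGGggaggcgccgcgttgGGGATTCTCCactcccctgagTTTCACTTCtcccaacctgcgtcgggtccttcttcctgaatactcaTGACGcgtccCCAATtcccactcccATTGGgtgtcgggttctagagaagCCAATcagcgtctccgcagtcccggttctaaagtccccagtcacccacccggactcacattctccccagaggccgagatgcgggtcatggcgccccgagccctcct
HLA-G: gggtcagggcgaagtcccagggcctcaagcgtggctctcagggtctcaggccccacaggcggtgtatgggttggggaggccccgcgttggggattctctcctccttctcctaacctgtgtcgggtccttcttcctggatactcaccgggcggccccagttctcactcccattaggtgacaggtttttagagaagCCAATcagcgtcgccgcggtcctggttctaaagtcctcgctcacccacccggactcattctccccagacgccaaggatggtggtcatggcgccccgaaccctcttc
B2M: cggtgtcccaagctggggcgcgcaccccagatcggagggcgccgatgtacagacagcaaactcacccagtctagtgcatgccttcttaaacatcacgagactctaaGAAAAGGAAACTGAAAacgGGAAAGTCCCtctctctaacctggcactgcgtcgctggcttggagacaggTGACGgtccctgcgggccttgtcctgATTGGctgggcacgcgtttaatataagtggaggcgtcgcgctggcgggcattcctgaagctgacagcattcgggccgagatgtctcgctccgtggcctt
TAP1: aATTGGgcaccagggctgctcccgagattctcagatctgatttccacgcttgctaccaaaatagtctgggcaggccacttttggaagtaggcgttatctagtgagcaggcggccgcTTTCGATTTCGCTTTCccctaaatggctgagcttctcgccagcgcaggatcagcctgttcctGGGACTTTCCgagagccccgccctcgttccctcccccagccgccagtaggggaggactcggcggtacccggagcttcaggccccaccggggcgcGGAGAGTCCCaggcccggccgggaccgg
TAP2: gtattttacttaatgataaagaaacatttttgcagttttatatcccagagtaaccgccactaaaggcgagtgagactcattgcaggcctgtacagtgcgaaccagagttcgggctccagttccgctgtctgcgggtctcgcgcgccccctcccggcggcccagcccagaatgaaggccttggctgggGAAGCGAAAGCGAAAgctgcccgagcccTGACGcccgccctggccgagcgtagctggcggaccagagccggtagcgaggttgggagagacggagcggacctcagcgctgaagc

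HLA-B and HLA-C each held 4 of the 5 kinds of motif, in the same order from the distal end: kappa B, the shorter ISRE form, the CRE core and then Y boxes, with 1 further Y box upstream of kappa B in HLA-C. The kappa B letters of HLA-B were matched on both strands, as a pair of overlapping matches. Their 300-base promoters were identical at 88.5% of aligned positions. HLA-F (chr6:29723184-29723483, plus strand) held the longer ISRE form and 2 Y boxes. The third start of HLA-G held 1 CCAAT match, at bases −56 to −52 from the start, and no other match. It is not shown to be the Y box of the class I module. HLA-B and HLA-C held a match at those same bases. Their Y box matches further upstream, among them −81 to −77 in HLA-B and −80 to −76 in HLA-C, had no counterpart in HLA-G. HLA-G was identical to HLA-C at 79.0% of aligned positions and to HLA-B at 74.5%. B2M held 4 kinds of motif, including a pair of overlapping longer ISRE matches, and TAP1 at its first start held 3 kinds with a like overlapping pair. TAP2 carried both ISRE forms, overlapping each other, and a CRE core, with no Y box in the window. Short patterns are common: among 35116 RefSeq promoter windows, 34.6% held CCAAT, 24.6% held TGACG, 7.66% held TTTCNNTTC, 3.57% held the longer ISRE form and 5.13% held kappa B. A match is a run of letters and not a measured binding site.

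**Figure D1:**
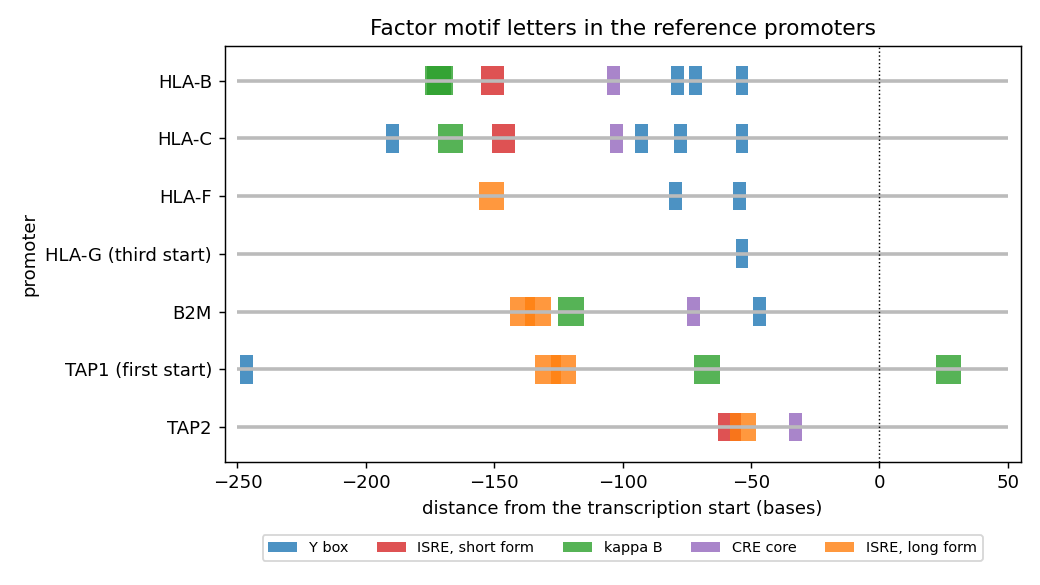
Motif matches in 7 RefSeq promoters of the class I genes, as coloured blocks along the distance from the transcription start in bases (base 251 of each window is 0). HLA-B and HLA-C share an order of kappa B, ISRE, CRE core and Y boxes. The third start of HLA-G has only the CCAAT match nearest the start, at −56 to −52, drawn as a Y box by its letters alone.

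The 4 libraries held from 3734519 to 10255182 promoter counts, of which 979895 to 4928862 were at nuclear promoters. Mitochondrial promoters took 51.9% and 55.6% of the counts in control and 74.7% and 73.8% in overexpression. Counts of the 9 genes ran from 6 to 377 per library, so that values in the shallower overexpression libraries are less precise. Accessibility is given as TMM-scaled CPM, the usual read depth unit relative to the library total, after the trimmed-mean scaling of edgeR. The study states 1 promoter width for all genes, so levels can be compared between genes on this scale, if the deposited table used that width. As a check of the cell type, 7 promoters expected to be open in HEK293T (ACTB, GAPDH, VIM, KRT8, KRT18, PAX2 and TUBB) had control means from 3.59 to 56.1 CPM. Of 6 leukocyte genes, PTPRC and CD3E were not retained by the filter on low counts and the other 4 had control means from 1.48 to 3.21 CPM. None of these markers passed the test between groups, although KRT8, KRT18 and PAX2 of the first list were higher in overexpression at an unadjusted edgeR p under 0.05. In bulk libraries, a wider opening in some cells and an opening in more cells cannot be told apart.

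The transporter genes had the most accessible promoters of the 9. In control, TAP2 had 26.9 and 30.1 CPM and TAP1 had 21.5 and 23.2 CPM, at percentiles 84.6 and 74.5 of all promoters tested. HLA-E followed with 17.0 and 15.8 CPM, then B2M with 13.7 and 15.5 CPM and HLA-C with 13.9 and 13.3 CPM, all above the median tested promoter (12.1 CPM). NLRC5 with 7.55 and 7.40 CPM, HLA-F with 7.76 and 6.63 CPM and HLA-B with 4.35 and 5.09 CPM lay below that median. HLA-G was lowest with 1.21 and 1.15 CPM, at percentile 4.76, which was below all 4 leukocyte genes that were tested. The order of the group means was the same in the overexpression libraries. Neighbours in this order overlapped in control for B2M and HLA-C and for NLRC5 and HLA-F, and in overexpression for TAP1 and HLA-E, for HLA-E and B2M and for NLRC5 and HLA-F.

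**Figure D2:**
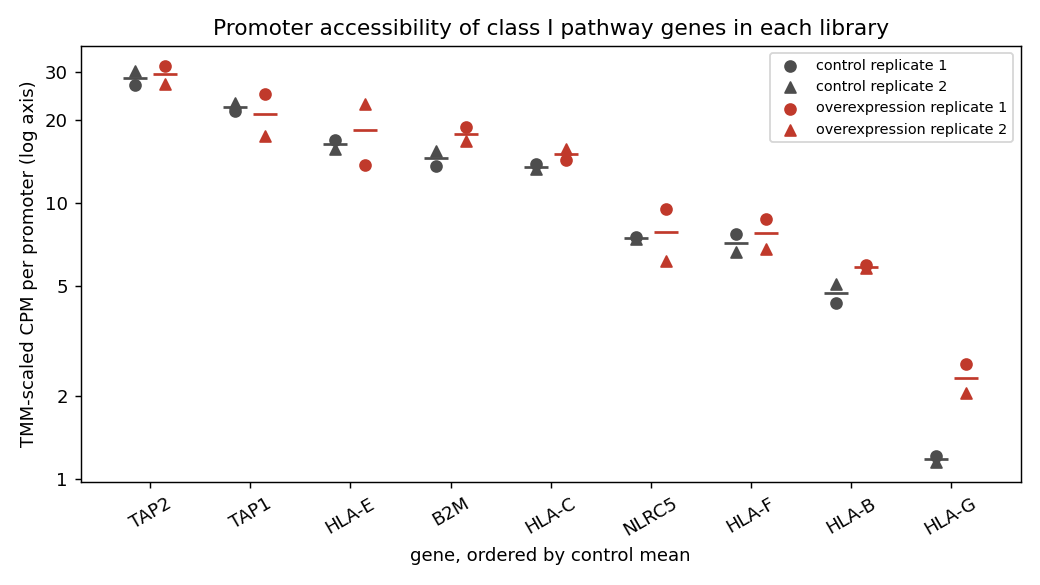
TMM-scaled CPM (log axis) of the 9 promoters in each of the 4 libraries, with the mean of each group as a bar. Levels run from TAP2 near 30 CPM to HLA-G near 1 to 3 CPM, and the points of both groups are close together at most genes.

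HLA-B and HLA-C differed in level although their promoters share motifs and most of their sequence. The count of HLA-C over that of HLA-B was 3.20 and 2.60 in control and 2.41 and 2.71 in overexpression. All 4 libraries therefore had HLA-C more than 2 times as high as HLA-B, and the group ranges of this ratio overlapped. Reads that map equally well to more than 1 place were removed by the mapping quality filter of the study, and reads of alleles that differ from the reference can fail to align. How much either lowers the counts of these similar and variable genes was not tested.

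To ask whether MORC2 overexpression altered accessibility at class I promoters, each was tested within a fit over all 23407 promoters that passed the filter, which all 9 did. None of the 9 had an edgeR adjusted p under 0.05, while 2.47% of all promoters tested did. An unadjusted edgeR p under 0.05 was found for 2 of the 9, HLA-G and B2M, against 17.2% of all promoters. The smallest adjusted p among the 9 was 0.206. limma-voom also called 0 of the 9, with 2 at an unadjusted p under 0.05, and DESeq2 gave 0 at an unadjusted p under 0.05 and no adjusted p for any of the 9. Each value below is the edgeR log2 fold change of overexpression over control, with its 95% interval. An interval that spans 0 leaves changes of the sizes it covers undecided. The intervals use a dispersion shared by promoters of like abundance, so they can be narrower than the spread of a single gene. At HLA-E, TAP1 and NLRC5, leaving out an overexpression library moved the fold change outside its interval.

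Among the heavy chain genes, HLA-B, which encodes a classical class I chain that presents peptides to CD8 T cells, had raw counts of 61 and 53 (control) and 32 and 17 (overexpression). On the scaled axis this was 4.35 and 5.09 CPM in control and 5.96 and 5.83 CPM in overexpression. Both overexpression libraries lay above both control libraries. The log2 fold change was 0.34 (interval from −0.18 to 0.86, edgeR adjusted p 0.532), and loess scaling, which centres promoters of like abundance on each other, brought it to 0.10.

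HLA-C, the classical chain that is also a main ligand of killer cell receptors, had raw counts of 195 and 138 (control) and 77 and 46 (overexpression). Its CPM was 13.9 and 13.3 in control and 14.4 and 15.8 in overexpression. The groups did not overlap, and the higher control library lay close under the lower overexpression library. The log2 fold change was 0.13 (interval from −0.20 to 0.45, edgeR adjusted p 0.738), and 0.15 under loess scaling.

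HLA-E, a non-classical chain that shows leader peptides of other class I chains to natural killer cells, had raw counts of 238 and 164 (control) and 74 and 67 (overexpression). Its CPM was 17.0 and 15.8 in control and 13.8 and 23.0 in overexpression. The overexpression libraries stood on either side of the control libraries, and their exact 95% Poisson intervals, from 10.8 to 17.3 and from 17.8 to 29.2 CPM, did not overlap. These intervals cover counting error only. The log2 fold change was 0.06 (interval from −0.24 to 0.36, edgeR adjusted p 0.879), with 0.11 under loess scaling, −0.26 without overexpression replicate 2 and 0.47 without overexpression replicate 1.

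HLA-F, a non-classical chain found largely inside the cell, had raw counts of 109 and 69 (control) and 47 and 20 (overexpression). Its CPM was 7.76 and 6.63 in control and 8.76 and 6.85 in overexpression. The groups overlapped, with a log2 fold change of 0.15 (interval from −0.29 to 0.59, edgeR adjusted p 0.774). Loess scaling gave 0.03, and without overexpression replicate 1 the value was −0.09.

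HLA-G, a non-classical chain best known from the placental trophoblast, had the lowest raw counts, 17 and 12 (control) and 14 and 6 (overexpression). Its CPM was 1.21 and 1.15 in control and 2.61 and 2.06 in overexpression. Both overexpression libraries lay above both control libraries, but the counting intervals were wide, from 0.705 to 1.94 and from 0.596 to 2.01 CPM in control and from 1.43 to 4.38 and from 0.755 to 4.47 CPM in overexpression. The log2 fold change was 1.01 (interval from 0.13 to 1.90), the largest of the 9, with an unadjusted edgeR p of 0.0241 and an adjusted p of 0.206. Promoters in the same abundance bin (the lowest of 4 equal bins) had a median log2 fold change of 0.39, and under loess scaling the value for HLA-G was 0.59 (edgeR adjusted p 0.681). RefSeq lists 3 starts for HLA-G and the table has 1 row for it, so which start was counted is not given in the sources used here.

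B2M, the light chain shared by all class I molecules, had raw counts of 192 and 161 (control) and 101 and 49 (overexpression). Its CPM was 13.7 and 15.5 in control and 18.8 and 16.8 in overexpression. Both overexpression libraries lay above both control libraries. The log2 fold change was 0.32 (interval from 0.02 to 0.62), with an unadjusted edgeR p of 0.0355 and an adjusted p of 0.248. Promoters in its abundance bin had a median of −0.05, and loess scaling gave 0.36 for B2M (edgeR adjusted p 0.343). The row of PATL2, the neighbouring gene in the gene table, had 191, 161, 101 and 49 counts in the same order of libraries, so the B2M and PATL2 rows count nearly the same fragments and are 1 measurement.

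TAP1, which forms the peptide transporter together with TAP2, had raw counts of 302 and 241 (control) and 133 and 51 (overexpression). Its CPM was 21.5 and 23.2 in control and 24.8 and 17.5 in overexpression. The overexpression libraries lay on either side of the control libraries, with a log2 fold change of −0.01 (interval from −0.28 to 0.26, edgeR adjusted p 0.980). Loess scaling gave 0.07, and the value was −0.36 without overexpression replicate 1 and 0.15 without overexpression replicate 2. PSMB9, the immunoproteasome gene that starts beside TAP1, had 301, 241, 131 and 50 counts, so these rows are also 1 measurement of a shared region.

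TAP2 had raw counts of 377 and 313 (control) and 169 and 79 (overexpression). Its CPM was 26.9 and 30.1 in control and 31.5 and 27.1 in overexpression. The groups overlapped, with a log2 fold change of 0.08 (interval from −0.17 to 0.32, edgeR adjusted p 0.800). Loess scaling gave 0.19, and without overexpression replicate 1 the value was −0.07.

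NLRC5, the coactivator of class I transcription, had raw counts of 106 and 77 (control) and 51 and 18 (overexpression). Its CPM was 7.55 and 7.40 in control and 9.51 and 6.17 in overexpression. The overexpression libraries again enclosed the control libraries, and the log2 fold change was 0.15 (interval from −0.28 to 0.58, edgeR adjusted p 0.774). Loess scaling gave 0.03, and without overexpression replicate 1 the value was −0.29. TAP1 and NLRC5 were lowest in overexpression replicate 2, the library with the fewest counts, whereas HLA-E was highest in it.

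**Figure D3:**
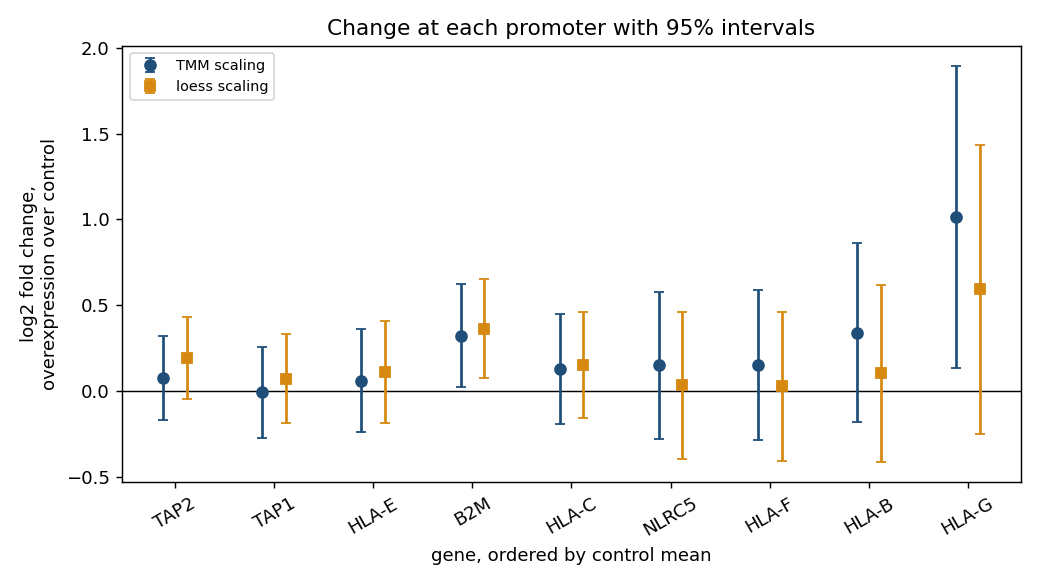
Log2 fold change of overexpression over control at the 9 promoters with 95% intervals, under TMM scaling (circles) and loess scaling (squares). The TMM intervals of HLA-G and B2M lie above 0 before adjustment, and the other 7 span 0.

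Across the 9 genes the median log2 fold change was 0.15, against 0.01 for all promoters tested. The fold change was above 0 at 8 of the 9 under TMM, at 9 of the 9 under upper-quartile, loess and nuclear-total scaling and at 1 of the 9 under library totals, whereas 51.4% of all promoters were above 0 under TMM. Scaling by library totals, which are mostly mitochondrial, moved the median of all promoters to −0.78. Relative to the median of all promoters, the median of the 9 lay 0.12 to 0.14 above it in those of the 12 fits compared that tested all 9. Where each library had to hold 10 counts, 8 of the 9 were tested and their median lay 0.16 above. With a mean count of at least 50, 7 were tested and their median lay 0.20 above. At 4 of the 9 (HLA-B, HLA-C, HLA-G and B2M) both overexpression libraries lay above both control libraries, and at 0 of the 9 both lay below. Of all promoters, 49.7% had groups that did not overlap and 24.8% had both overexpression libraries higher. The 9 genes together took 324.0 and 334.1 CPM of nuclear promoter counts, unscaled, in control and 382.1 and 360.2 in overexpression.

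Fold changes in these libraries ran with promoter abundance, from a median of 0.39 in the lowest of the 4 bins through 0.13 and −0.05 to −0.13 in the highest. HLA-G belonged to the lowest bin, HLA-B, HLA-F and NLRC5 in the next, HLA-C, HLA-E, B2M and TAP1 in the third and TAP2 in the highest. HLA-F and NLRC5, at 0.15 each, and TAP1, at −0.01, were near the medians of their bins. HLA-E, at 0.06, lay above its bin median of −0.05. HLA-B, HLA-C, HLA-G, B2M and TAP2 were further above theirs. The share of mitochondrial counts moved with the groups, and its part in these values was not tested.

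**Figure D4:**
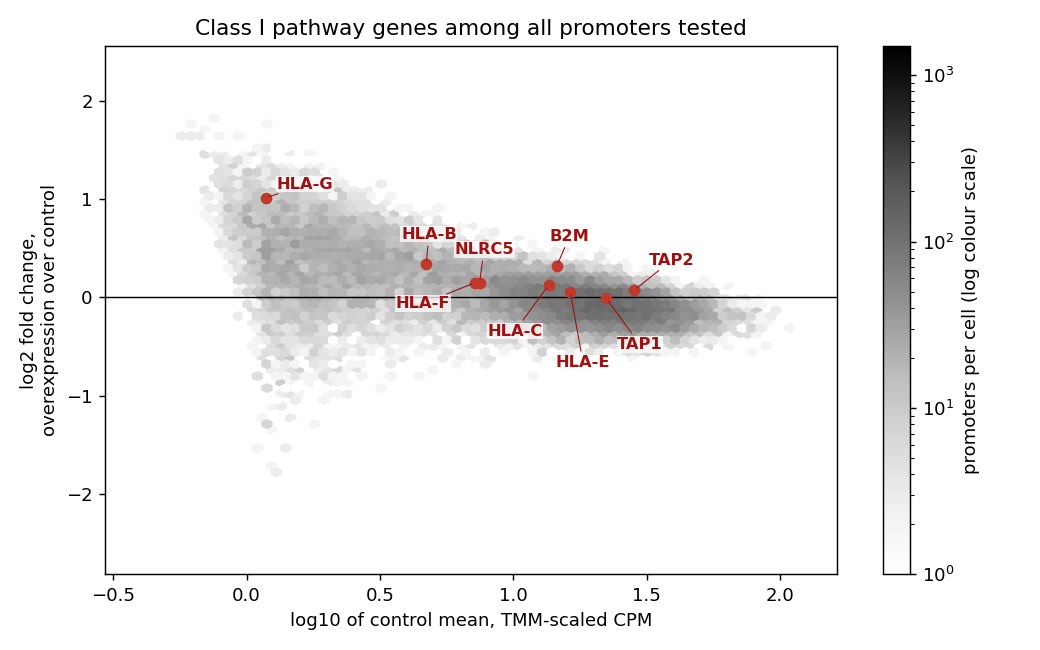
Log2 fold change against log10 of the control mean for all promoters tested (grey, shaded by number) and the 9 class I pathway genes (red), with 38 promoters of very high level or large change outside the axes. The cloud slopes down with abundance and the 9 genes lie within it.

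The rest of the pathway was read from 6 lists with 56 genes, of which 54 were tested and ERAP1 and CD1A were not. Their median log2 fold change was −0.05, with 0 promoters past the threshold upward and 2 downward, against 2.47% of all promoters tested in either direction. Both were genes of factors that bind class I promoters. CREB1, which binds the CRE core, had 35.6 and 37.6 CPM in control and 26.5 and 26.7 CPM in overexpression. Neither overexpression library reached the control range, and its accessibility fell by 0.46 on the log2 scale (SE 0.124, edgeR adjusted p 0.0199). NFYC, a subunit of the Y box factor NF-Y, had 32.0 and 27.8 CPM in control and 22.4 and 20.9 CPM in overexpression, again with no overlap. Its accessibility fell by 0.46 (SE 0.132, edgeR adjusted p 0.0321), and the row of its antisense neighbour NFYC-AS1 counted nearly the same fragments. Both lie in the highest abundance bin. Loess scaling ended both calls, with log2 fold changes of −0.33 for CREB1 and −0.36 for NFYC and edgeR adjusted p of 0.289 and 0.282. Neither passed under upper-quartile scaling (log2 fold change −0.38 for each, adjusted p 0.0654 and 0.0887) or with a mean count of at least 50 (0.0780 and 0.111), and under nuclear totals CREB1 passed (0.0488) and NFYC did not (0.0693). Leaving out any 1 library ended the call of CREB1 (edgeR adjusted p from 0.0687 to 0.228), and leaving out any but control replicate 2 ended that of NFYC (0.0301 to 0.306). The log2 fold changes then ran from −0.50 to −0.43 for CREB1 and from −0.55 to −0.35 for NFYC.

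Of the 13 transcription factor genes, 2 passed under TMM, both lower, and 11 did not pass. The list median was −0.14, at a median control mean of 22.8 CPM against 12.1 CPM for all promoters tested. This median and those of the lists below are under TMM and were not set against promoters of like abundance. NFYA, the DNA-binding partner of NFYC and the most accessible promoter of the list, had 66.3 and 65.3 CPM in control and 59.8 and 48.0 in overexpression (log2 fold change −0.25, edgeR adjusted p 0.148). RFXANK, a subunit of the RFX complex, had 24.4 and 21.2 CPM in control and 19.9 and 15.8 in overexpression (log2 fold change −0.32, edgeR adjusted p 0.208), in a window it shares with BORCS8. CIITA, the class II counterpart of NLRC5, was near the bottom of the range with 2.07 and 1.54 CPM in control and 2.98 and 3.43 in overexpression (log2 fold change 0.77, edgeR adjusted p 0.283).

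In the proteasome list, 0 of 6 passed in either direction and the median was −0.01. PSME2, a subunit of the PA28 proteasome activator and the most accessible of the list, had 46.0 and 48.5 CPM in control and 39.1 and 37.7 in overexpression (log2 fold change −0.29, edgeR adjusted p 0.132). PSMB10, an inducible catalytic subunit, had 31.8 and 33.9 CPM in control and 28.0 and 30.8 in overexpression (log2 fold change −0.17, edgeR adjusted p 0.480). At both, the overexpression libraries lay below the control libraries without passing the test.

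In the list for peptide trimming and loading, 0 of the 6 tested passed and the median was −0.01. TAPBP, which encodes tapasin, the bridge between TAP and the empty heavy chain, had 11.3 and 13.6 CPM in control and 14.9 and 17.5 in overexpression (log2 fold change 0.37, edgeR adjusted p 0.210). CANX and CALR, the lectin chaperones of heavy chain folding, were the most accessible, with log2 fold changes of −0.14 and 0.01 (edgeR adjusted p 0.482 and 0.981).

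In the interferon signalling list, 0 of 9 passed and the median was −0.13. STAT2, a part of the interferon-activated complex that binds ISREs, and JAK2, a receptor kinase, were the most accessible, with log2 fold changes of −0.15 and −0.13 (edgeR adjusted p 0.547 and 0.623). Among class I-like genes 0 of the 13 tested passed, with a median of 0.23. This was the least accessible of the lists, with a median control mean of 4.49 CPM. Promoters of low abundance had higher fold changes in general, with medians of 0.39 and 0.13 in the lowest 2 bins. HFE, a class I-like regulator of iron uptake, had 0.926 and 0.577 CPM in control and 1.86 and 1.71 in overexpression (log2 fold change 1.21, edgeR adjusted p 0.20). ULBP3, a stress ligand of natural killer cells and the most accessible of this list, had 26.8 and 31.3 CPM in control and 23.9 and 22.3 in overexpression (log2 fold change −0.31, edgeR adjusted p 0.183), and CD1D, which presents lipids, came next with a log2 fold change of −0.07 (edgeR adjusted p 0.841).

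Among negative regulators of class I, 0 of 7 passed and all 7 had log2 fold changes below 0 under TMM, with a median of −0.18. EED, a core subunit of the Polycomb complex that methylates histone H3 at class I loci, had 21.7 and 17.5 CPM in control and 14.4 and 14.7 in overexpression (log2 fold change −0.45, edgeR adjusted p 0.0805). TMEM127 and EZH2, the most accessible of the list, had log2 fold changes of −0.18 and −0.19 (edgeR adjusted p 0.376 and 0.396). The row of CIAO1 beside TMEM127 counted nearly the same fragments, so both are 1 measurement.

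**Figure D5:**
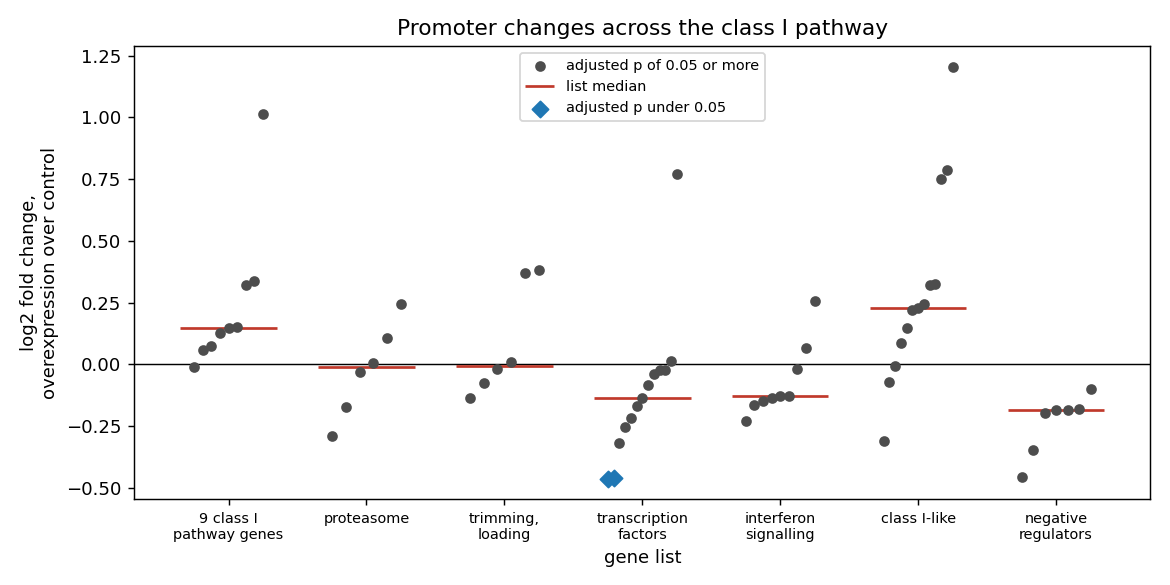
Log2 fold change of overexpression over control for the 9 class I pathway genes and the tested genes of 6 further lists, each point a promoter and each red bar a list median. CREB1 and NFYC, at −0.46 each, are the points past the threshold of 0.05 (diamonds).

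The promoters nearest to 2 of the 9 genes in level and pattern were found by the root mean square difference of log2 CPM over the 4 libraries. Nearest to HLA-G were NME5, LOC105377162 and LINC01754, at differences from 0.0684 to 0.0766. Nearest to TAP2 were CKMT2-AS1 and ZCCHC9, each at 0.0185, and USP4 at 0.0211. CKMT2-AS1 and ZCCHC9 had the same CPM in every library, so their rows may count the same fragments and be 1 measurement. With 4 libraries such likeness is a description only.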

How the data were processed

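ATAC-seq libraries of HEK293T cells (2 control, 2 overexpression) were grouped by their labels, and each of the 4 count columns was matched to its sample. The authors state that read pairs were trimmed, aligned to T2T-CHM13 by Bowtie2, filtered for proper pairing and mapping quality, and cleared of duplicates by Picard. Deposited were raw counts per promoter, 1 row per Entrez identifier, with no normalization. The methods describe promoters as a 2 kb window at each start site, and that the table used it is an assumption. A shift of read ends for Tn5 is not given in the sources used here. Peak lists were not used here, because positions of these genes on that assembly were not at hand.

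Identifiers were matched to RefSeq symbols (28763 of 28775 named). Total counts were 3734519 to 10255182 per library, and the depth limits single promoters. With edgeR 4.0.16 (R 4.3.3), promoters passing filterByExpr (23407) were scaled by TMM and tested with the two-sided quasi-likelihood F-test (legacy form, no covariate), with Benjamini-Hochberg adjustment over all 23407 and a threshold at 0.05. Prior degrees of freedom came out infinite, so promoters of like abundance shared a dispersion. Tested on simulated data for this comparison, it recovered 75.1% of changed promoters (2-fold) at a coefficient of variation of 0.05 and 11.4% at 0.2. Exact permutation of 2 against 2 libraries cannot go below 0.333.

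The 9 genes, the lists and the motif patterns were chosen with earlier results of these data known, and the longer ISRE pattern was added after promoter sequences had been seen. Named pathway genes were those with an unadjusted p under 0.05, PSMB9 and the 2 of each list with the highest control level. Neighbours of the named genes were given where their counts were within 10% in every library. Nearest promoters were sought for the gene of smallest p and the most accessible gene. A motif and a marker gene are not reported here. Motifs were found with Python 3.11.15 and promoter pairs aligned with Biopython 1.88. Alternatives covered scaling, filters, the test (DESeq2 1.42.0, limma-voom of limma 3.58.1), thresholds, a replicate block and leaving out each library.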

Additional observations from a re-analysis of the deposited data

How the results depend on the processing

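Scaling by nuclear totals was chosen after seeing the data. The cause of each difference below was not tested, except that stricter filters and fewer libraries leave less to test. The count of 0 of the 9 class I genes past the threshold held in all fits that gave it but library totals, where 7 passed, all lower. In DESeq2 none of the 9 had an adjusted p.

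Past the threshold were 577 of all promoters (52.9% lower) and 2 pathway genes. These counts were 16319 (99.7% lower) and 45 with library totals, 54 (40.7% lower) and 0 with loess scaling, 32 (34.4% lower) and 0 with loess scaling without mitochondrial promoters, 218 and 0 with a mean count of at least 50, 108 (63.0% lower) and 0 in DESeq2, where 48 of the 54 pathway genes had no adjusted p, and 171 and 0 at an adjusted p under 0.01. All promoters numbered 368 where each library had to hold 10 counts and 1166 at an adjusted p under 0.1, and pathway genes numbered 0 with upper-quartile scaling (493 promoters, 22.1% lower) and 1 with nuclear totals (467, 29.6% lower). Leaving out 1 library gave 101 to 206 promoters (135 without control replicate 1, 206 without control replicate 2, 119 without overexpression replicate 1 and 101 without overexpression replicate 2), 0 to 1 pathway genes and 0 of the 9.

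The median log2 fold change of the 9 (0.15) was −0.65 with library totals and 0.13 to 0.26 with 1 library left out, highest without overexpression replicate 2. With library totals the sign turned for HLA-B (−0.46), HLA-C (−0.67), HLA-E (−0.72), HLA-F (−0.65), B2M (−0.48), TAP2 (−0.72) and NLRC5 (−0.65). TAP1 (−0.0095) turned above 0 with upper-quartile scaling (0.071), loess scaling (0.071, and 0.071 without mitochondrial promoters), 10 counts required in each library (0.017), a mean count of at least 50 (0.062) and nuclear totals (0.046). With 1 library left out, signs turned for TAP1 (range −0.36 to 0.15), TAP2 (−0.074 to 0.15), HLA-E (−0.26 to 0.47), HLA-F (−0.094 to 0.28) and NLRC5 (−0.29 to 0.34). The libraries were overexpression replicate 1 for HLA-F and NLRC5, overexpression replicate 2 for HLA-E, control replicate 2 or overexpression replicate 2 for TAP1, and either replicate 1 for TAP2.

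Groups share replicate numbers, but the deviations of libraries with the same number correlated at 0.05 over 14976 promoters, which was not taken as pairing. With the replicate block, 488 promoters, 0 of the 9 and 2 pathway genes passed, and the median of the 9 was 0.13.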
